A study of Rangifer tarandus with 4 samples.

Results

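The globin genes of the gene annotation deposited for the series were described, 8 of the 21880 genes it holds. They were chosen by symbol: HB followed by A, B, D, E, G, M, Q or Z and optional digits. The symbols found were HBM, HBA and HBQ1 on chromosome 25, called alpha-type here, and HBE1, HBE4, HBB, HBE2 and HBG on chromosome 15, called beta-type. No gene carried a symbol of the HBD or HBZ form. Protein-coding genes without a symbol within 100 kb of a member, 15 in all, were described as neighbours only.

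The series profiled blood mononuclear cells of reindeer (Rangifer tarandus) as single-cell 3′ RNA libraries on day 3 after a wound. There were 2 libraries from blood of the saphenous vein (back) and 2 from blood of the distal antler velvet (antler), with about 12000 cells loaded for each. Red cells were lysed before loading, per the labels' protocols, and the labels give no genotype or age. Since cell-by-gene counts were not analysed here, neither expression nor sequencing depth is described, and antler is not compared with back. The annotation describes cattle (Bos taurus), assembly ARS-UCD1.2, and all positions below are on that assembly, counted from 1. Its values are positions with no replicates and hence no error, and lengths of gene models were compared without a test, because related genes are not replicates.

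Haemoglobin, the oxygen carrier of red cells, is built from alpha-type and beta-type globin chains, each holding a haem group. In mammals the genes of either type lie in a cluster of their own, and different members serve the embryo, the fetus and the adult. The introns of vertebrate globin genes sit at conserved places in the coding sequence. Ruminant beta-type clusters are known to have grown by duplication of a block of several genes. Globin transcripts are the bulk of red cell messenger RNA, and in blood libraries they are also found as free RNA from lysed red cells.

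The alpha-type genes lay close together and the beta-type genes far apart. From the start of HBM to the end of HBQ1 the alpha-type cluster ran from 213430 to 223194 on chromosome 25, or 9.77 kb. From the start of HBE1 to the end of HBG the beta-type cluster ran from 48336979 to 48414036 on chromosome 15, or 77.1 kb. Exons of the members covered 25.8% of the alpha-type stretch and 4.49% of the beta-type stretch. All 8 members were on the plus strand.

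The order on chromosome 25 was HBM, HBA, an unnamed gene and HBQ1. HBM, the mu chain, an alpha-type globin (ENSBTAG00000038757), ran from 213430 to 215062. HBA, the alpha chain of adult haemoglobin (ENSBTAG00000051412), ran from 216448 to 217264. HBQ1, the theta chain, known from the human alpha cluster (ENSBTAG00000016567), ran from 222415 to 223194. The gap between HBM and HBA was 1385 bases, and that between HBA and HBQ1, which holds the unnamed gene ENSBTAG00000054844, was 5150 bases. The nearest genes with a symbol were NPRL3, a regulator of nutrient signalling whose introns hold the distal alpha-globin enhancers in mammals, 27.7 kb before HBM, and LUC7L, 8.08 kb after HBQ1. Both were on the minus strand. The 9 genes looked up because they flank the alpha cluster in mammals (POLR3K, SNRNP25, RHBDF1, MPG, NPRL3, LUC7L, FAM234A, RGS11 and AXIN1) were all found on chromosome 25.

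On the plus strand of chromosome 15 the order was HBE1, HBE4, an unnamed gene, HBB, an unnamed gene, HBE2, an unnamed gene and HBG. HBE1 (ENSBTAG00000037815, 48336979 to 48338849), HBE4 (ENSBTAG00000037751, 48346226 to 48347924) and HBE2 (ENSBTAG00000039178, 48388416 to 48389968) carry the name of the epsilon chain, an embryonic beta-type chain. HBB, the beta chain of adult haemoglobin (ENSBTAG00000037644), ran from 48362236 to 48363996. HBG (ENSBTAG00000038748), named for gamma, the fetal beta-type chain of primates, ran from 48412408 to 48414036. Of 5 unnamed genes inside the cluster, the other 2, ENSBTAG00000047847 and ENSBTAG00000054499, were on the minus strand. Gaps between consecutive members were 7376 bases (HBE1 to HBE4), 14311 bases (HBE4 to HBB), 24419 bases (HBB to HBE2) and 22439 bases (HBE2 to HBG). The smallest of these was larger than either gap of the alpha-type cluster. The nearest gene with a symbol before the cluster was OR51B4, 28.5 kb away, and the nearest after it was OR51A7, 501.4 kb away. Both are named as olfactory receptors, and 22 unnamed genes lay between HBG and OR51A7.

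**Figure D1:**
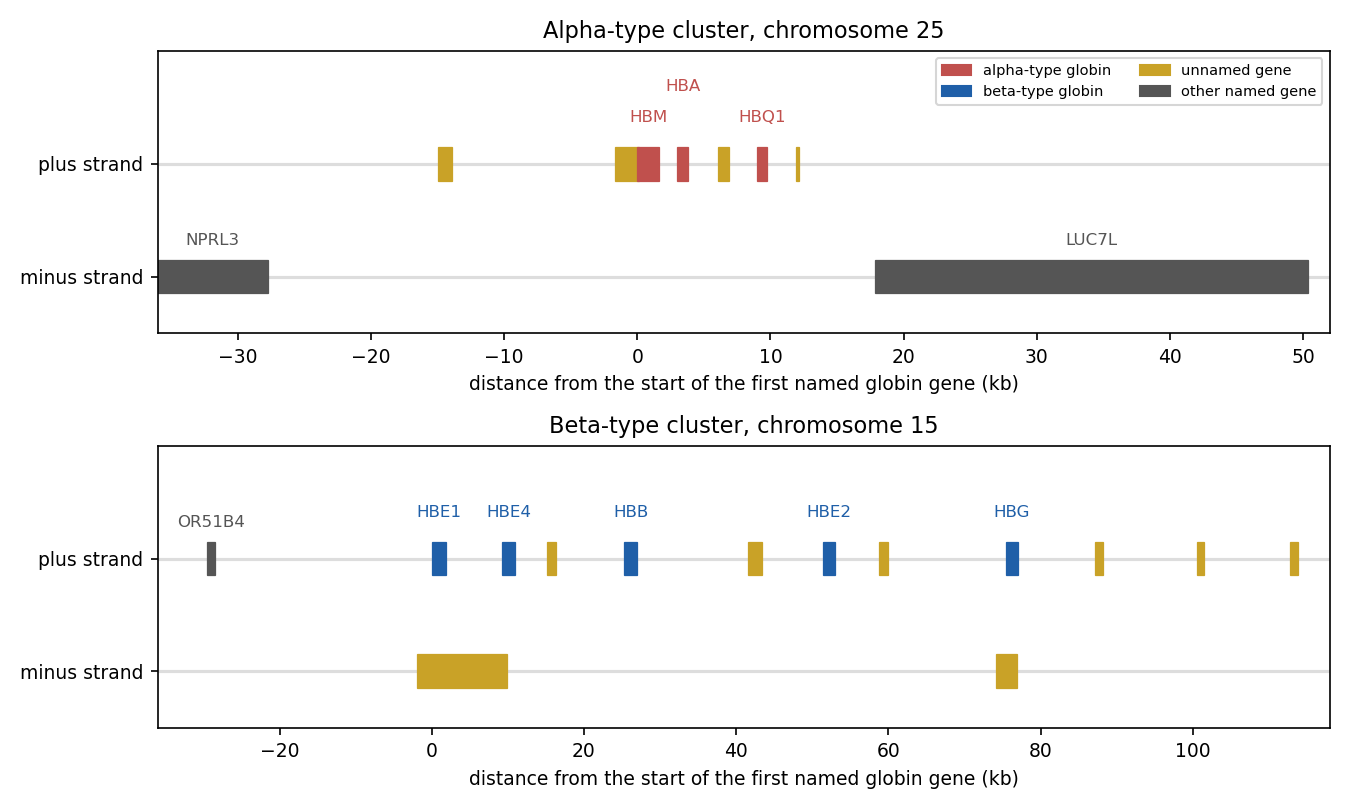
Position (kb from the start of the first named globin gene) and strand of the genes around the alpha-type cluster on chromosome 25 (top) and the beta-type cluster on chromosome 15 (bottom). Boxes are whole genes, except that NPRL3 is cut at the left edge. Red and blue mark globins, yellow unnamed genes and grey other named genes. The 3 alpha-type genes fit in 9.77 kb and the 5 beta-type genes spread over 77.1 kb.

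The plus-strand genes of the beta-type cluster were split by position into a pair of rows of 4 genes, a split singled out after the values were seen. Genes of equal rank were called counterparts, so the pairing is set by the split and was not tested. The first row was HBE1, HBE4, ENSBTAG00000049600 and HBB, and the other was ENSBTAG00000039056, HBE2, ENSBTAG00000052199 and HBG. The distance from a gene to its counterpart was 41.6 kb for HBE1, 42.2 kb for HBE4, 43.6 kb for ENSBTAG00000049600 and 50.2 kb for HBB. HBE4 and HBE2 had the same length in 5 of 7 parts of the gene (5′ UTR, 3 coding exons, 2 introns, 3′ UTR). Their first introns both measured 125 bases, their second introns 841 and 843 bases, and their 3′ UTRs both 134 bases. Their 5′ UTRs differed, with 155 bases in HBE4 and 7 bases in HBE2. HBE1 and its unnamed counterpart ENSBTAG00000039056 also agreed in 5 of 7 parts, with the third coding exon of the latter summed over 2 pieces. Both had a 5′ UTR of 80 bases and a 3′ UTR of 117 bases in the model compared. HBB and HBG agreed only in the 3 coding exons. So did HBE1 with HBE4, HBE1 with HBE2, and ENSBTAG00000039056 with HBE4 and with HBE2, which are not counterparts. ENSBTAG00000049600 and ENSBTAG00000052199 agreed in no coding exon or intron: the former had 2 coding exons of 150 and 114 bases, the latter 3 of 92, 202 and 126 bases. Sequence was not compared, because no genome was used.

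Every member had a model with 3 coding exons, and the coding parts were nearly invariant within a cluster. Coding lengths are given without the stop codon, and codons include the start codon. The second coding exon measured 205 bases in each alpha-type gene and 223 bases in each beta-type gene. The third measured 126 bases in all 8 genes. Among the 1836 genes with 3 coding exons, 22 had this length (1.2%), and 7 of these were members. HBE1 is not counted there, since its transcript with the longest coding sequence has 2 coding exons. The first measured 95 bases in HBA and HBQ1, 92 bases in HBM, HBE1, HBE4 and HBE2, and 86 bases in HBB and HBG. The proteins encoded by these models were 141 codons long for HBM, 142 for HBA and HBQ1, 145 for HBB and HBG, and 147 for HBE1, HBE4 and HBE2.

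The difference between HBA and HBE4 was thus 5 codons, made of 6 more codons in the second exon of HBE4 and 1 fewer in the first. HBB was 2 codons shorter than HBE4, all in the first exon. In every member the first intron split a codon after the second base and the second intron lay between codons. Whole codons before the first intron numbered 31 in HBA and HBQ1, 30 in HBM and the HBE genes, and 28 in HBB and HBG. Whole codons before the second intron numbered 99 in HBM, 100 in HBA and HBQ1, 103 in HBB and HBG, and 105 in the HBE genes. Among all protein-coding genes, 8.4% had 3 coding exons in the transcript with the longest coding sequence, and 8.88% of those had introns at the same places within codons. A coding length between the 423 bases of HBM and the 450 bases of the longer HBE1 transcript was found in 1.44% of all protein-coding genes.

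The clusters differed most in the second intron. It measured 112 bases in HBM, 104 in HBA and 95 in HBQ1, against 1090 in HBE1, 841 in HBE4, 900 in HBB, 843 in HBE2 and 579 in HBG. The ranges, 95 to 112 and 579 to 1090 bases, did not overlap. The first intron measured 155 bases in HBM, 101 in HBA and 139 in HBQ1. In the beta-type genes it measured 117 bases in HBE1, 125 in HBE4 and HBE2, 128 in HBB and 421 in HBG. Here the ranges overlapped, and HBG alone stood above 155 bases. HBG had both the longest first intron and the shortest second intron of the beta-type genes, so its introns summed to 1000 bases, within the beta-type range of 966 to 1207 bases. In the alpha-type genes the sum ran from 205 to 267 bases. Among the 1836 protein-coding genes with 3 coding exons the median first and second introns were 1447.5 and 1339.5 bases, above every member.

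**Figure D2:**
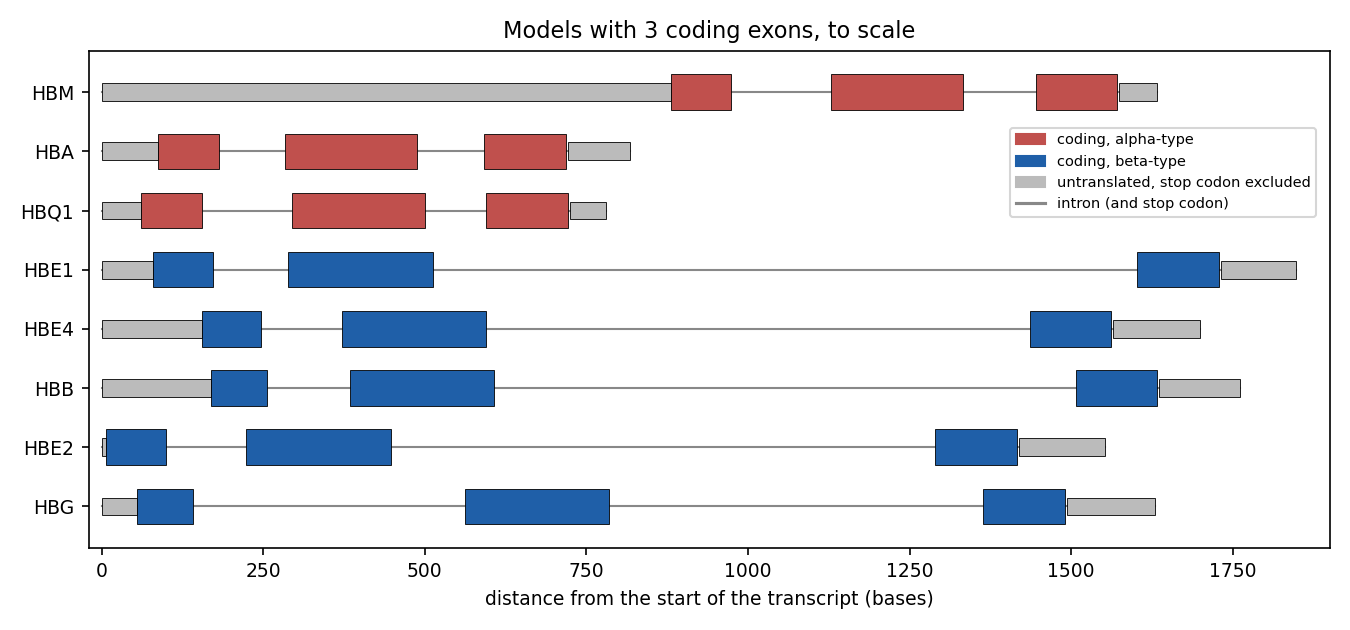
Globin gene models with 3 coding exons, drawn to scale from the start of the transcript (bases). Wide boxes are coding exons, narrow grey boxes untranslated regions and lines introns; the second intron spans 579 to 1090 bases in the blue beta-type genes and 95 to 112 bases in the red alpha-type genes, and HBM carries the long 5′ UTR.

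Untranslated regions were annotated at both ends of all 8 members. Over all protein-coding genes, 65.5% had a 3′ UTR and 66.4% a 5′ UTR. The members were chosen by symbol, and among genes carrying a symbol these shares were 79.8% and 80.6%. The 3′ UTRs of the globins were short. They measured 56 bases in HBQ1, 59 in HBM, 96 in HBA, 117 in HBE1, 125 in HBB, 134 in HBE4 and HBE2, and 136 in HBG. The alpha-type range of 56 to 96 bases lay below the beta-type range of 117 to 136 bases. This rests on the choice of HBE1 model: with its other transcript, the one with the longer coding sequence, HBE1 had 77 bases and the ranges overlapped. The median over all genes with a 3′ UTR was 626 bases, and the median over the 8 members was 121. From 3.77% (HBQ1) to 11.7% (HBG) of genes with a 3′ UTR had a shorter one.

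Libraries of this kind are read near the 3′ end of transcripts, where the last exon lies. The last exon, from the second splice to the transcript end, measured 185 bases in HBQ1, 188 in HBM and 225 in HBA. In the beta-type models with 3 coding exons it measured 246 bases in HBE1, 254 in HBB, 263 in HBE4 and HBE2, and 265 in HBG. The next gene downstream on the same strand began 1385 bases after HBM, 2247 after HBA and 2129 after HBQ1. In the beta-type cluster that distance ran from 4197 bases for HBE4 to 14561 bases for HBB. The sources used here do not say how reads were assigned to these models.

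**Figure D3:**
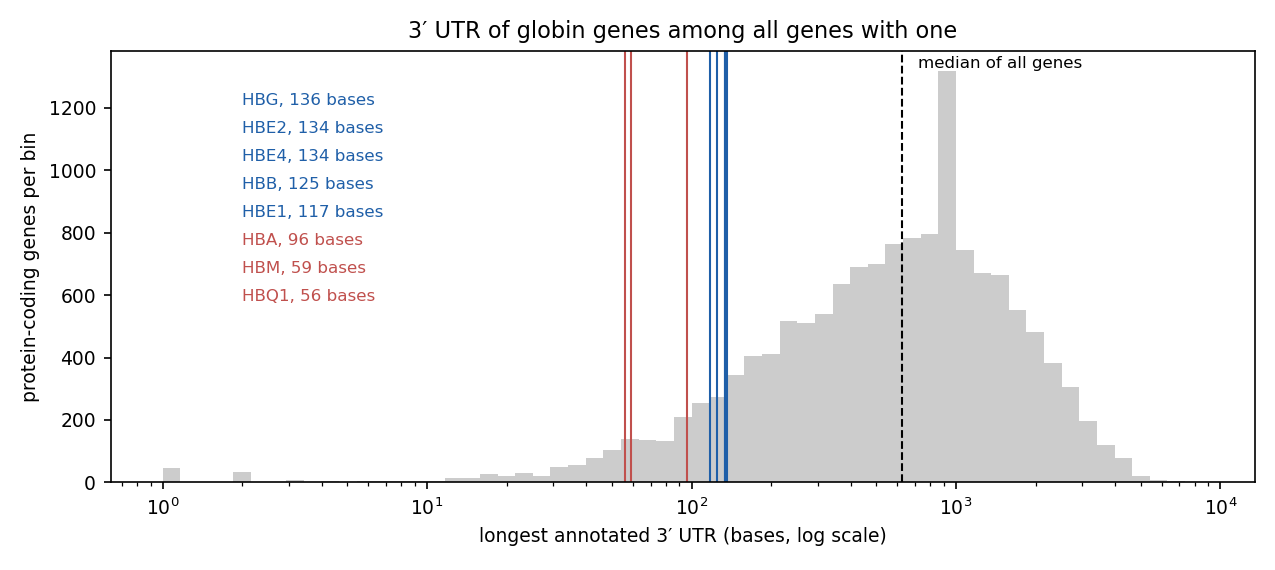
Number of protein-coding genes by length of their longest annotated 3′ UTR (bases, log scale), with vertical lines at the 8 globin genes. The red alpha-type genes lie between 56 and 96 bases, the blue beta-type genes between 117 and 136 bases (HBE1 has 77 in its other transcript), and all lie below the median of 626 bases (dashed line).

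The 5′ UTRs did not separate the clusters. In the models with 3 coding exons they measured 61 bases in HBQ1, 87 in HBA and 881 in HBM, and 7 in HBE2, 55 in HBG, 80 in HBE1, 155 in HBE4 and 170 in HBB. The 5′ UTR of HBM was longer than that of 95.6% of genes with one, and that of HBE2 was longer than that of 1.09%. The median over all genes with a 5′ UTR was 208 bases. In HBM this region made up 64.5% of the transcript of 1366 bases, while in the other members the coding sequence was the larger part.

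**Figure D4:**
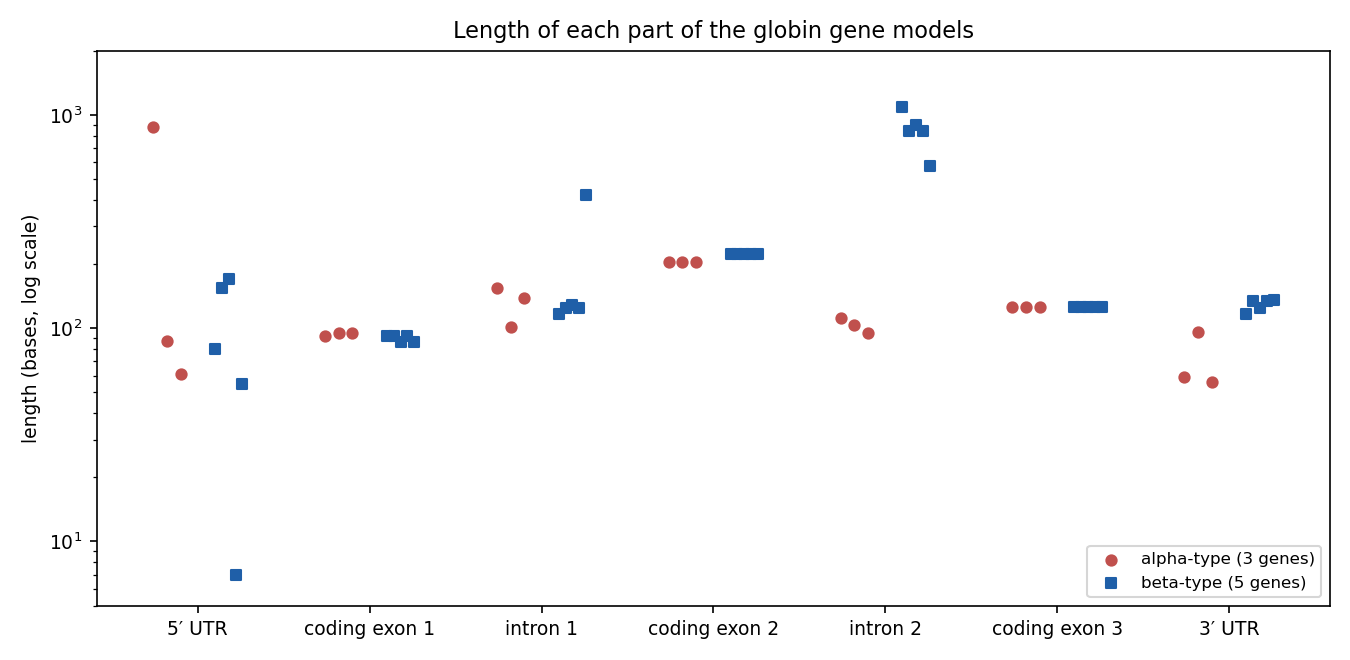
Length (bases, log scale) of the 7 parts of each globin gene model with 3 coding exons, for 3 alpha-type genes (red circles) and 5 beta-type genes (blue squares). Coding exons hardly vary, the second intron separates the clusters without overlap, the 3′ UTR does so in these models but not with the other HBE1 transcript (77 bases), and the 5′ UTR ranges from 7 bases in HBE2 to 881 bases in HBM.

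The long 5′ UTR of HBM ran into a neighbour. An unnamed gene on the same strand, ENSBTAG00000034024, had 116 exon bases in common with HBM. All 116 belonged to the 5′ UTR of HBM and lay in the last exon of the neighbour, which is 129 bases long. Of these, 113 were coding bases of the neighbour, and the rest its stop codon. The coding sequence of HBM began 766 bases beyond the end of that gene. HBM was the only member, 1 of 8, with exon bases shared on its own strand, against 1.75% of all protein-coding genes.

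With the other strand counted as well, 4 of 8 members shared exon bases, against 8.11% of all protein-coding genes. HBE1 shared 282 bases and HBE4 23 bases with ENSBTAG00000047847, an unnamed gene on the minus strand of 141 codons that spans the whole of HBE1 and reaches into HBE4. All of these were coding bases on both strands in the models compared. HBG shared 381 bases with ENSBTAG00000054499, an unnamed minus-strand gene of 189 codons. Of these, 342 were coding bases of both genes and 36 lay in the 3′ UTR of HBG. Neither minus-strand model had an annotated UTR. HBB, HBE2, HBA and HBQ1 shared no exon bases on either strand. The sources used here do not say whether reads were counted by strand, and without strand, reads within the shared bases cannot be told apart. In HBE4, and in the HBE1 model with 3 coding exons, none of the shared bases lay in a UTR. In the other HBE1 transcript, whose coding sequence begins farther downstream, part of the shared bases lay in the 5′ UTR.

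HBE1 was the only member with more than 1 transcript, and its models differed at both ends. The model used above (ENSBTAT00000045696) had 3 coding exons and 147 codons. The other (ENSBTAT00000056194) had 2 coding exons of 324 and 126 bases and 150 codons. In it the first intron was not removed. Its coding sequence began in that intron, 17 bases after the end of the first coding exon of the other model, and entered the second exon in the same reading frame. The models shared 349 coding bases. The longer coding model had a 5′ UTR of 211 bases and a 3′ UTR of 77 bases, against 80 and 117 bases in the model with 3 coding exons. Over all protein-coding genes, 62.3% had a single transcript.

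The neighbours on the plus strand inside the clusters resembled the members in part. ENSBTAG00000039056 encoded 147 codons, as many as HBE1, but in 4 exons, because the third coding exon was interrupted by a gap of 5 bases. The pieces on either side measured 90 and 36 bases and summed to 126. An intron under 10 bases was found in 142 protein-coding genes, or 0.65%. ENSBTAG00000052199 had coding exons of 92, 202 and 126 bases and no UTR. Its first intron of 129 bases and second intron of 591 bases lay within the beta-type ranges. ENSBTAG00000049600 had 2 coding exons and 88 codons, with a gap of 918 bases between them.

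On chromosome 25, ENSBTAG00000054844 lay between HBA and HBQ1 with 2 exons. Its first coding exon of 95 bases and first intron of 101 bases had the lengths found in HBA. Its second exon measured 534 bases, which is the sum of the second exon, second intron and last exon of HBA. The coding sequence stopped 313 bases into that exon, giving 136 codons and a 3′ UTR of 218 bases. ENSBTAG00000038921, from 198487 to 199498 between NPRL3 and HBM, had coding exons of 95, 205 and 126 bases, the lengths found in HBA and HBQ1. Its introns were 383 and 200 bases long, and it had no annotated UTR. ENSBTAG00000034024, the gene overlapping HBM, had coding exons of 150, 183 and 126 bases, of which only the last has the length found in the globins. ENSBTAG00000032198, after HBQ1, was a single exon of 92 codons. The files give these genes no name, and none is given to them here.

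The remaining neighbours had other sizes. ENSBTAG00000049166, ENSBTAG00000020673 and ENSBTAG00000051179, after HBG, were single exons of 320, 319 and 312 codons. ENSBTAG00000046378 had 315 codons and ENSBTAG00000052657, before HBE1, had 310. ENSBTAG00000053747, beyond LUC7L, had 498 codons in 1 exon. Of the 15 neighbours, 3 had a 3′ UTR, and that of ENSBTAG00000053747 was a single base.

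The layout of coding exons was rare in the annotation. In 9 of 21861 protein-coding genes, or 0.0412%, the transcript with the longest coding sequence had 3 coding exons of which the first 2 were within 3 bases of those of HBB or HBM. They were 5 members (HBB, HBG, HBM, HBA, HBQ1), the neighbours ENSBTAG00000052199 and ENSBTAG00000038921, and 2 genes elsewhere. The members among them were matched in part by construction, as HBB and HBM set the lengths. HBE4 and HBE2 missed the limit because their first exon is 6 bases longer than that of HBB. Compared with any of the 8 members in any transcript, an option chosen after the data were seen, 13 genes matched: the 8 members, both neighbours, MB and the same 2 genes elsewhere.

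The closest gene outside the clusters was ENSBTAG00000047356, with coding exons of 86, 223 and 126 bases, the same as HBB and HBG. No further gene had these 3 lengths. It lay on the minus strand of chromosome 15 from 48675985 to 48677409, 261.9 kb beyond HBG, with 10 unnamed genes between, 9 of which had a single coding exon. Its introns measured 424 and 563 bases, next to 421 and 579 bases in HBG. It encoded 145 codons and had no annotated UTR and no symbol. The other, ENSBTAG00000051099 on chromosome 13, had coding exons of 90, 204 and 27 bases, and its introns both lay between codons, unlike those of the members.

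Ranked by the summed difference over the 3 coding exons, the 10 genes nearest to HBB were HBG and ENSBTAG00000047356 (0 bases), HBE4 and HBE2 (6 bases), HBM (24 bases), and MB, HBQ1, ENSBTAG00000038921, HBA and ENSBTAG00000052199 (27 bases each). HBE1 was not ranked, since the longer coding sequence has 2 exons. The 10 nearest to HBM began with HBQ1, ENSBTAG00000038921, HBA and ENSBTAG00000052199 (3 bases each). Then came HBE4, HBE2 and ENSBTAG00000052690 on chromosome 7 (18 bases each), and HBB, HBG and ENSBTAG00000047356 (24 bases each).

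**Figure D5:**
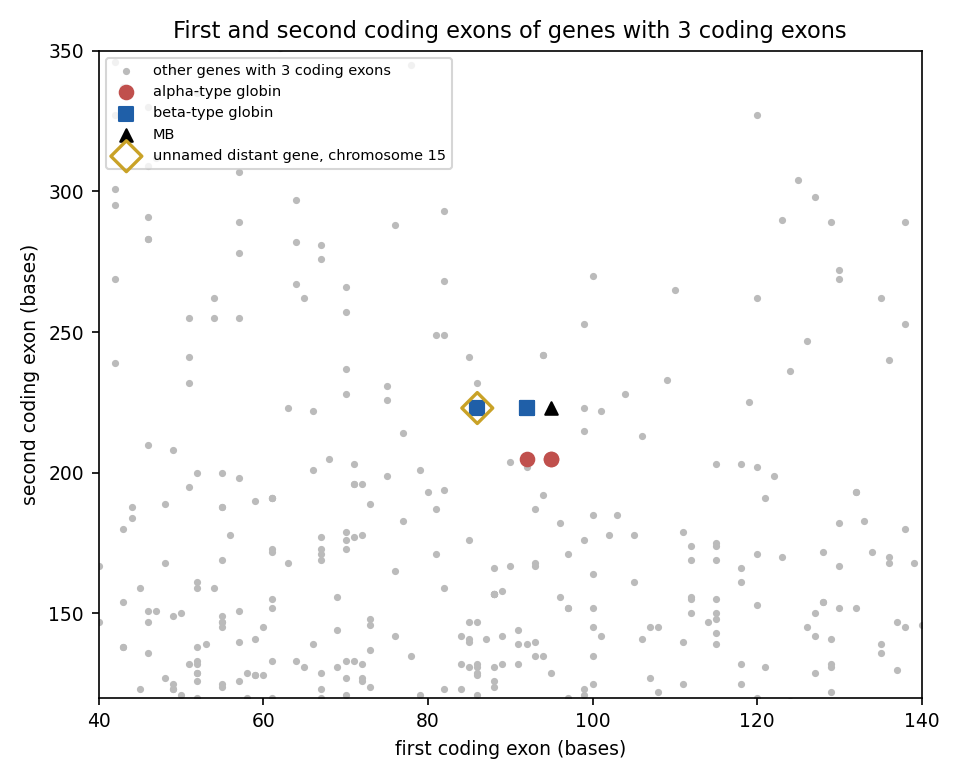
First against second coding exon (bases) of genes with 3 coding exons, within the part of the plane around the globins. The red alpha-type genes stand at 205 bases and the blue beta-type genes at 223 bases on the vertical axis, MB (triangle) shares the 223 bases, and the diamond marks ENSBTAG00000047356 at the place of HBB and HBG.

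In the globins outside the clusters the first 2 introns lay at the same position within a codon as in the members, but not always after as many codons. MB, myoglobin, the oxygen store of muscle (ENSBTAG00000005333, chromosome 5, 73814162 to 73829888, minus strand), had coding exons of 95, 223 and 144 bases. Its introns of 5344 and 4364 bases lay after the second base of a codon and between codons, behind 31 and 106 whole codons, and it encoded 154 codons. NGB, neuroglobin of nerve cells, encoded 151 codons and had 4 coding exons of 89, 112, 120 and 132 bases. Its first 2 introns came after 29 and 67 whole codons. Its last intron lay between codons after 107 whole codons, beside 99 to 105 before the second intron of the members. CYGB, cytoglobin, had up to 388 codons, and its first 2 introns came after 245 and 323 whole codons. The first coding exon measured 737 bases and lacked an annotated start codon. The second, between these introns, measured 232 bases, against 205 or 223 in the members. The 3′ UTRs were 548 bases in MB, 1255 bases in NGB and 694 bases in CYGB (also the median), each longer than that of any member.

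The 3′ UTRs of genes that work with haemoglobin are given by list, and the lists were chosen with earlier results of these data known. All 9 genes of haem synthesis had one, and their median length was 164 bases. It was shortest in UROD, which makes coproporphyrinogen, with 81 bases, and longest in FECH, which inserts the iron, with 1341 bases. ALAS2, the red cell form of the first enzyme, had 127 bases, close to HBB. Of 12 genes of haemoglobin partners and clearance, 11 had one, and the median was 621 bases. HP, haptoglobin, which binds free haemoglobin, had 122 bases and FLVCR1, a haem exporter, 1945 bases. CD163, the receptor of the haptoglobin complex, had none. AHSP, the chaperone of free alpha chains, had 162 bases and 92 codons.

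All 15 factors of globin switching and red cell development had one, and the median was 475 bases. The range ran from 124 bases in ZFPM1, the partner of GATA1, to 4566 bases in ZBTB7A, a repressor of fetal globin genes. KLF1, an activator of the adult beta-globin gene, had 475 bases, and BCL11A, a repressor of fetal globin genes, had 197. Of the 9 genes that flank the alpha cluster, 7 had one and their median was 473 bases. RGS11 had the shortest with 109 bases and AXIN1 the longest with 4337 bases, and MPG and LUC7L had none. Of 15 symbols of red cell markers, 13 were matched and all 13 had one, with the median at 434 bases. The list held 3 members, among them HBM with the shortest at 59 bases, and SLC4A1 had the longest at 1656 bases. The symbols HBA1 and HBA2 were not matched. Beside these lists, the median of 626 bases over all genes with a 3′ UTR lay above each list median except that of the other globins.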

How the data were processed

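Single-cell 3′ RNA libraries were made from 4 blood samples of reindeer, 2 back and 2 antler, grouped by the labels' source. The submitters' processing notes name the tools STAR, Seurat and Cell Ranger 3. The file used was the gene annotation the authors deposited, for cattle assembly ARS-UCD1.2 per the file headers; its values are positions in bases of 37538 transcripts, and the sources used here do not say how it was applied to reads of reindeer. It holds no counts, so no depth, group comparison or test is given.

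Members were matched by symbol, and unnamed protein-coding genes with any base within 100 kb were taken as neighbours. UTR length is the longest over transcripts, and the coding sequence is that of the transcript with the longest one; members are described by their model with 3 coding exons where stated. Shared bases are those with the partner sharing most. Named were all members, all neighbours, the nearest named gene on either side, the 10 genes nearest in coding exon lengths, and per list the unmatched genes, those without a 3′ UTR and the longest and shortest; ALAS2, AHSP, KLF1, BCL11A, ENSBTAG00000047356 as a separate account, and the pairing of beta-type genes into rows were singled out after values were seen. Members, like the lists, were chosen with earlier results of these data known. Counts over all protein-coding genes are given as background. The reader was tested on 500 simulated gene models and returned all 500 exactly. Python 3.11.15 and matplotlib 3.10.9 were used. No sequence is printed, since no genome or sequence table was used.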

Additional observations from a re-analysis of the deposited data

How the results depend on the processing

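Of 40 alternative values for single members, 34 were equal to the reported ones and 6 changed. In HBE1, the transcript with the longest coding sequence gave a 3′ UTR of 77 bases instead of 117, which ends the separation of the clusters by 3′ UTR, the shortest coding sequence was 441 bases instead of 450, and the transcript with the most exons had 3 coding exons instead of 2. With either strand counted, shared exon bases went from 0 to 282 in HBE1, 23 in HBE4 and 381 in HBG. The pattern matched 8 genes, and 9 when any letters or digits after it and either letter case were allowed together. The looser form is not limited to globin symbols, and the gene it added was not taken as a member. Unnamed neighbours numbered 15, against 13 within 50 kb and 22 within 200 kb. The number of genes with the coding exon layout of HBB or HBM was 9, and it fell to 4 when the lengths had to be equal; it was 11 within 6 bases and 9 over any transcript. With genes carrying a symbol as background, no share moved by over 1.5 times. No paired analysis was possible because the annotation holds no values of samples; the codes in the titles, each in 1 library per site, were not used.

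The lengths are those of cattle models; reindeer transcripts were not examined.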
